A study of Mus musculus with 4 samples.

Results

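The 10 genes described here are the stress transcription factor Atf4 and 9 genes that it switches on or that work with it when amino acids run short. They are Atf5, Asns, Trib3, Chac1, Ddit3, Ddit4, Sesn2, Slc7a5 and Slc3a2. They were taken by gene symbol from a list that, like the related lists below, was chosen with earlier results of these data known. All 10 were found among the 24391 genes counted in each sample. RNA was sequenced from 4 mouse lung tumour samples, 2 per group. The control group, K-Ras, carried K-RasLSL-G12D, a mutant K-Ras allele kept silent by a removable stop cassette until Cre recombinase acts. The other group, K-Ras Mll4-/-, carried the same allele and, in addition, floxed Mll4 alleles (Mll4fl/fl). Mll4 is now named Kmt2d and encodes an enhancer histone H3 lysine methyltransferase. Both groups therefore share the mutant K-Ras, and in both the tumours were dissociated and depleted of CD45-bearing leukocytes before RNA extraction. The labels do not give the source of Cre or the age of the mice, and they do not say whether a sample is 1 mouse, so the p-values measure only the spread between these samples.

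ATF4 sits at the end of the integrated stress response. When amino acids are scarce, unfolded protein fills the endoplasmic reticulum or mitochondria fail, kinases phosphorylate the translation factor eIF2alpha, general translation slows, and the Atf4 messenger is translated more. ATF4 then pairs with C/EBP proteins at composite sites and turns on genes for amino acid uptake, amino acid synthesis, tRNA charging and growth arrest. Because much of this control acts on translation, the level of the Atf4 transcript is an incomplete guide to the amount of ATF4 protein, and the targets are commonly read instead.

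In these tumours the pathway did not move as 1 block. Trib3, Ddit4, Chac1 and Slc3a2 were lower in both K-Ras Mll4-/- samples than in both K-Ras samples. Slc7a5 was slightly higher in both, and Atf4, Atf5, Asns, Ddit3 and Sesn2 overlapped between the groups. The median log2 fold change of the 10 genes (K-Ras Mll4-/- minus K-Ras) was 0.046, with a range from -0.85 to 0.31, beside a median of -0.013 over all 16001 genes tested. None of the 10 was called by the edgeR quasi-likelihood test at an adjusted p under 0.05. That test called 0.0375% of all genes. DESeq2, which called 10.4% of the genes it gave an adjusted p, called 0 of the 10 as well. Before adjustment, 1 of the 10 (Trib3, lower) had an edgeR p under 0.05, against 21.8% of all genes in either direction and 10.4% lower. The groups were separate for 5 of the 10, against 58.3% of all genes. Split by direction, 4 of 10 were lower without overlap, against 28.5% of all genes, and 1 of 10 was higher, against 29.9%. The number of separated genes was therefore near that of the whole table. The mean log2 CPM of the 10 genes was 5.03 and 5.23 in the K-Ras samples and 5.09 and 4.93 in the K-Ras Mll4-/- samples. These values overlapped (exact two-sided permutation p = 0.667, where 2 samples against 2 cannot give a p below 0.333).

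**Figure D1:**
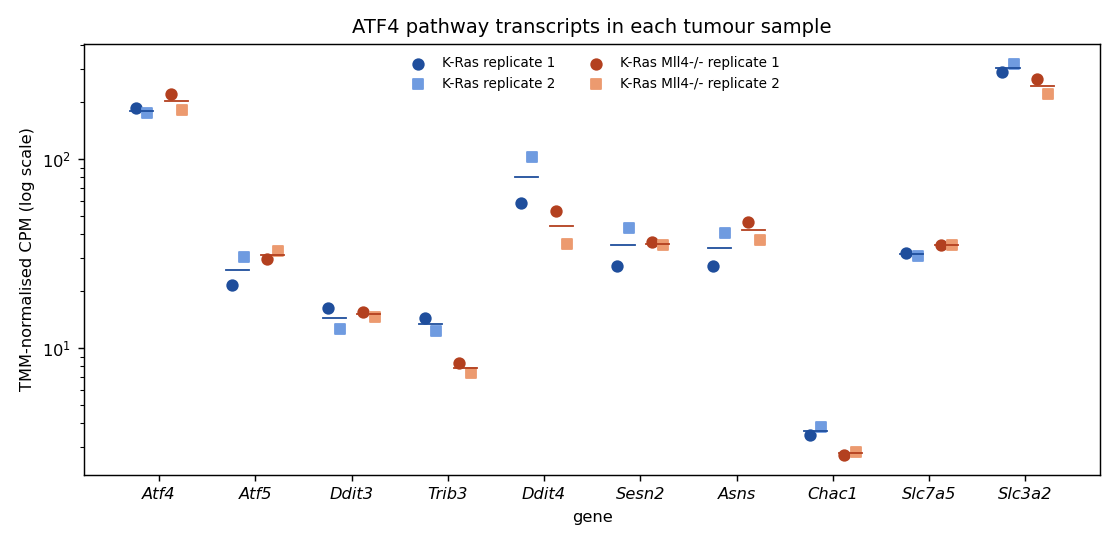
Each point is 1 tumour sample (blue, K-Ras; orange, K-Ras Mll4-/-; circles, replicate 1; squares, replicate 2) and each line a group mean of TMM-normalised CPM on a log axis. The orange points lie below the blue ones for Trib3, Ddit4, Chac1 and Slc3a2, just above them for Slc7a5, and among them for the other 5 genes.

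Between 26683033 and 36677987 reads per sample were assigned to genes, so 3 reads, taken as the detection floor, correspond to 0.0830 to 0.114 CPM. CPM here means counts brought to a common library size by TMM scaling, which adjusts for library composition, and the floor covers counting error only. Every one of the 10 genes passed the count filter and was far above that floor, from 71 reads for Chac1 to 11581 for Slc3a2. The targeted gene, Kmt2d, differed by -0.43 on the log2 scale (edgeR adjusted p = 0.302), with both K-Ras Mll4-/- samples below both K-Ras samples. With GC and length offsets that difference was -0.064. A count over the whole gene cannot show that an exon is missing, so the deletion is taken from the labels. The tissue label was checked with 7 alveolar type 2 markers, all of which had reads, at a summed 15270 to 25470 CPM. K-Ras replicate 2 stood apart in airway genes: 4 club cell markers summed to 3588 CPM there and to between 566 and 743 CPM in the other 3 samples. The leukocyte gene Ptprc was still present and did not separate the groups (log2 fold change 0.075, edgeR adjusted p = 0.930). Of 8 leukocyte markers, 7 overlapped and 1, Itgam, was lower without overlap, beside 28.5% of all genes. Itgam had a log2 fold change of -1.554 (edgeR adjusted p = 0.186), and DESeq2 called it lower.

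The regulators came first. Atf4, the transcription factor itself, was at 186 and 176 CPM in K-Ras replicates 1 and 2 and at 222 and 182 CPM in K-Ras Mll4-/- replicates 1 and 2. Only K-Ras Mll4-/- replicate 1 was higher, and the other K-Ras Mll4-/- sample lay between the K-Ras samples. The log2 fold change was 0.16 (SE 0.16, edgeR adjusted p = 0.583), and it was 0.015 without K-Ras Mll4-/- replicate 1. The genes whose centred log2 CPM over the 4 samples lay nearest to those of Atf4 were Bop1, Slc25a39 and Dctn4. Their log2 fold changes were 0.19, 0.15 and 0.19. Likeness was measured by Euclidean distance, and with 4 samples it describes little more than a small difference in K-Ras Mll4-/- replicate 1.

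Atf5, a related factor that is also controlled by translation and serves the mitochondrial stress response, was at 21.5 and 30.4 CPM in K-Ras and at 29.7 and 32.5 CPM in K-Ras Mll4-/-. K-Ras replicate 1 was the low sample, and the other 3 were alike. Its log2 fold change was 0.26 (SE 0.21, edgeR adjusted p = 0.514). It was 0.034 without K-Ras replicate 1 and 0.52 without K-Ras replicate 2. Offsets for GC content and transcript length moved it to 0.47, still not called (adjusted p = 0.237). In RefSeq (GRCm38.p6) the gene overlaps Nup62 and Il4i1b, and the strand setting of the counting is not given in the sources used here, so its count is less certain.

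Ddit3 encodes CHOP, a C/EBP-family factor tied to cell death under prolonged stress. It was at 16.3 and 12.5 CPM in K-Ras and at 15.5 and 14.6 CPM in K-Ras Mll4-/-, so both K-Ras Mll4-/- samples lay inside the K-Ras range. The log2 fold change was 0.067 (SE 0.20, edgeR adjusted p = 0.873) and changed sign, to -0.10, with GC and length offsets. Ddit3 overlaps Mars1 (the file's Mars) and Mbd6 in RefSeq, so the same caution on its count applies.

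Trib3, a pseudokinase induced by ATF4 that in turn dampens ATF4 and CHOP activity, had the smallest p of the 10 genes. It was at 14.4 and 12.3 CPM in K-Ras, against 8.34 and 7.35 CPM in K-Ras Mll4-/-. The groups were well apart, and the 2 samples of each group were close. The K-Ras level was 1.70 times the K-Ras Mll4-/- level, a log2 fold change of -0.77 (SE 0.21). The unadjusted edgeR p was 0.0158 and the adjusted p 0.177, rank 1421 of 16001 genes by p. The size ranged from -0.89 to -0.63 over 16 other settings, and the adjusted p from 0.0706 (DESeq2) to 0.772, so no test called it.

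**Figure D2:**
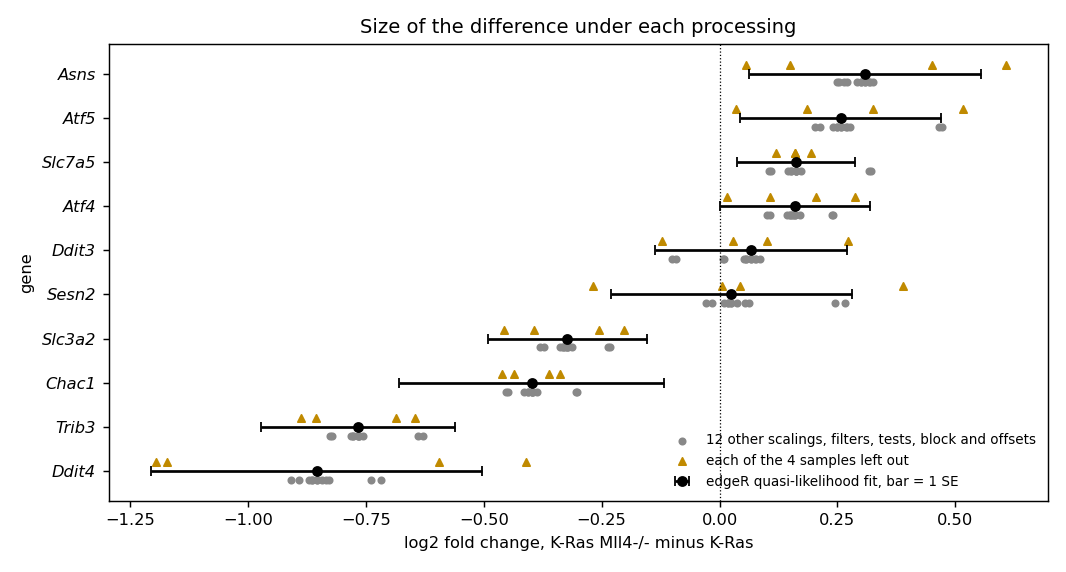
Black points give the log2 fold change (K-Ras Mll4-/- minus K-Ras) from the edgeR quasi-likelihood fit with 1 SE, grey points the 12 other processings, and triangles the fits with 1 sample left out. Trib3 stayed between -0.89 and -0.63, whereas the triangles of Sesn2 ran from -0.27 to 0.39.

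Growth control was represented by Ddit4 and Sesn2, which both lower the activity of the growth kinase complex mTORC1. Ddit4 (also called REDD1) responds to ATF4, hypoxia and glucocorticoids. It was at 58.5 and 102 CPM in K-Ras and at 53.4 and 35.5 CPM in K-Ras Mll4-/-. K-Ras replicate 1 and K-Ras Mll4-/- replicate 1 were almost level. The difference came mainly from the high K-Ras replicate 2 and the low K-Ras Mll4-/- replicate 2. The log2 fold change was the largest of the 10 in size, -0.85 (SE 0.35, unadjusted p = 0.0653, edgeR adjusted p = 0.253). Without K-Ras replicate 2 it was -0.41, and without K-Ras replicate 1 it was -1.20.

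Other genes that answer to the signals that reach Ddit4 were read from a list of glucocorticoid and hypoxia targets. Per1, a clock gene and glucocorticoid target, was at 119 and 245 CPM in K-Ras and at 130 and 80.9 CPM in K-Ras Mll4-/-. Fkbp5, a chaperone gene induced by glucocorticoids, was at 133 and 279 CPM against 155 and 106 CPM. Both were highest in K-Ras replicate 2 and lowest in K-Ras Mll4-/- replicate 2, as Ddit4 was. Sgk1, of the same list, was instead highest in K-Ras replicate 1, at 356 and 225 CPM in K-Ras against 266 and 141 CPM. These examples were chosen after their values were seen. The hypoxia targets named by rule, Ndrg1 and Egln3, ran the other way, whereas Ankrd37 did not (log2 fold change -0.246, edgeR adjusted p = 0.675). Ndrg1 was at 143 and 171 CPM in K-Ras and at 601 and 434 CPM in K-Ras Mll4-/- (log2 fold change 1.72, edgeR adjusted p = 0.132). Egln3, an oxygen-sensing hydroxylase, had a log2 fold change of 2.33 (edgeR adjusted p = 0.163). Of the 10 genes in this list, 4 were higher without overlap (29.9% of all genes), among them Vegfa and Bnip3. The edgeR quasi-likelihood test called 0 and DESeq2 called 2, Ndrg1 and Egln3, beside 10.4% of the genes it gave an adjusted p.

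Sesn2, a leucine sensor and stress protein, was at 27.0 and 43.1 CPM in K-Ras and at 36.3 and 35.1 CPM in K-Ras Mll4-/-. The 2 K-Ras samples spanned both others. The log2 fold change was 0.025 (SE 0.26, edgeR adjusted p = 0.962), and its sign turned with upper-quartile or total-count scaling. Its paralogues differed from it and from each other. Sesn1, a p53 target, was at 27.5 and 38.0 CPM in K-Ras and at 24.0 and 18.1 CPM in K-Ras Mll4-/- (log2 fold change -0.64, edgeR adjusted p = 0.234). Sesn3, which is under FOXO control, was at 21.8 and 22.6 CPM against 30.2 and 31.8 CPM (log2 fold change 0.48, edgeR adjusted p = 0.179). Of 14 mTORC1 and amino acid sensing genes tested, 0 were called by the edgeR quasi-likelihood test and 0 by DESeq2. There were 2 at an unadjusted edgeR p under 0.05, beside 21.8% of all genes. Without overlap 3 were higher and 5 lower, beside 29.9% and 28.5% of all genes. The median log2 fold change was -0.11, and 0.037 with GC and length offsets. The highest of them after Sesn3 was Rheb, the GTPase that activates mTORC1, at 0.40 (edgeR adjusted p = 0.214).

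Enzymes were represented by Asns and Chac1. Asns, asparagine synthetase, is the classical ATF4 target. It was at 27.3 and 40.4 CPM in K-Ras and at 46.5 and 37.4 CPM in K-Ras Mll4-/-. K-Ras replicate 1 was low and the other 3 samples overlapped. The log2 fold change was 0.31 (SE 0.25, edgeR adjusted p = 0.501), and it was 0.057 without K-Ras replicate 1 and 0.61 without K-Ras replicate 2. Chac1, which degrades glutathione, was the least abundant gene, at 3.47 and 3.82 CPM in K-Ras and at 2.70 and 2.82 CPM in K-Ras Mll4-/-. Its groups were apart by a small margin (log2 fold change -0.40, SE 0.28, edgeR adjusted p = 0.449), from 71 to 138 reads per sample. Its paralogue Chac2, a slower enzyme of the same reaction, was at 3.99 and 3.43 CPM in K-Ras and at 6.93 and 8.25 CPM in K-Ras Mll4-/- (log2 fold change 1.03, edgeR adjusted p = 0.168, DESeq2 adjusted p = 0.0495, range over 16 settings 0.0495 to 0.772).

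Asns and Chac1 were also the 2 genes whose upstream sequence held the core letters of the ATF4 composite site, so both stretches are shown. Neither difference passed the test. The letters TGATGNAA were searched on both strands in the 250 bases before each RefSeq start (GRCm38.p6, whereas the submitters' processing notes name mm9). Of the 10 genes, 9 had an entry, and 2 held the letters, against 3.91% of 27025 genes. Capitals mark the match. In Asns (minus strand) it covers bases 23 to 16 before the start. In Chac1 (plus strand) it covers bases 193 to 186 and reads in reverse.
Asns, chr6:7693210-7693252: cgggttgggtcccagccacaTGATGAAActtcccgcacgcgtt
Chac1, chr2:119351029-119351076: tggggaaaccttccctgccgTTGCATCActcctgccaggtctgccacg
The cyclic AMP response letters TGACGTCA and the endoplasmic reticulum stress element (CCAAT and CCACG spaced by 9 bases) do not overlap the first motif and were found in 0 of the 9 genes, against 1.77% and 0.130% of all genes. A match is a run of letters, not a shown binding site, and these windows leave out more distant sites.

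Uptake was represented by the 2 chains of the transporter LAT1. Slc7a5 is the chain that carries leucine and other large neutral amino acids, and Slc3a2 (CD98 heavy chain) brings it to the cell surface. Slc7a5 was at 32.0 and 30.7 CPM in K-Ras and at 35.2 and 34.9 CPM in K-Ras Mll4-/-. Replicates were very close in both groups, and the K-Ras Mll4-/- samples were just above (log2 fold change 0.16, SE 0.12, edgeR adjusted p = 0.485). Slc3a2 was at 288 and 320.5 CPM in K-Ras and at 265 and 221 CPM in K-Ras Mll4-/-. Both K-Ras Mll4-/- samples were below (log2 fold change -0.32, SE 0.17, edgeR adjusted p = 0.327). Without K-Ras Mll4-/- replicate 2 the size of the Slc3a2 difference was -0.20. The levels of the chains were closer in K-Ras Mll4-/-: per kilobase of transcript, the level of Slc3a2 was 11.2 and 13.0 times that of Slc7a5 in K-Ras and 9.42 and 7.90 times in K-Ras Mll4-/-. On the log2 scale the ratio of Slc7a5 to Slc3a2 differed by 0.49 between the groups, with SDs of 0.15 and 0.18. The groups did not overlap, and the exact permutation p was the smallest possible, 0.333. Because Slc7a5 was higher and Slc3a2 lower without overlap, that outcome was fixed in advance and adds no support. Slc3a2 also pairs with other light chains, so its level is not that of LAT1 alone.

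Levels can be set side by side between genes only per length, taken from the longest GENCODE transcript. In K-Ras, Slc3a2 (102 and 114 CPM per kilobase) lay above Atf4 (92.0 and 87.0). In K-Ras Mll4-/- the order turned, with Slc3a2 at 94.4 and 78.5 and Atf4 at 109.9 and 90.2, ranges that overlap. Ddit4 came next, at 33.4 to 58.1 CPM per kilobase in K-Ras and 20.2 to 30.4 in K-Ras Mll4-/-. Asns, Ddit3, Atf5, Sesn2 and Slc7a5 followed between 7.77 and 23.1 CPM per kilobase over the 4 samples. In K-Ras the ranges of neighbours in that order overlapped, whereas in K-Ras Mll4-/- those of Asns, Atf5, Ddit3, Sesn2 and Slc7a5 followed each other, in this order, without meeting. Trib3 (3.63 to 7.10) and Chac1 (1.65 to 2.33) were the lowest in each group, and their ranges did not meet in either group.

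Each target was also set against Atf4 in the same sample, which removes scaling between libraries. The log2 ratio of Trib3 to Atf4 was -3.69 and -3.83 in K-Ras and -4.73 and -4.63 in K-Ras Mll4-/-, a difference of -0.92. Ddit4 to Atf4 differed by -0.98, Chac1 by -0.55 and Slc3a2 by -0.48, in each case without overlap. Those 4 ratios had the smallest possible exact permutation p, 0.333. The same 4 genes were already lower without overlap and Atf4 differed little, so these separations were likely beforehand and are not independent support. The ratios of Asns, Atf5, Ddit3, Sesn2 and Slc7a5 to Atf4 overlapped between the groups, with differences from -0.089 to 0.175. Trib3 against Asns, 2 targets of the same factor, gave a difference of -1.09 without overlap. Trib3 had the smallest p of the 10 genes and Asns the highest log2 fold change, so a gap between them was likely from the start. A ratio shows unequal change between 2 genes, not which of them changed.

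**Figure D3:**
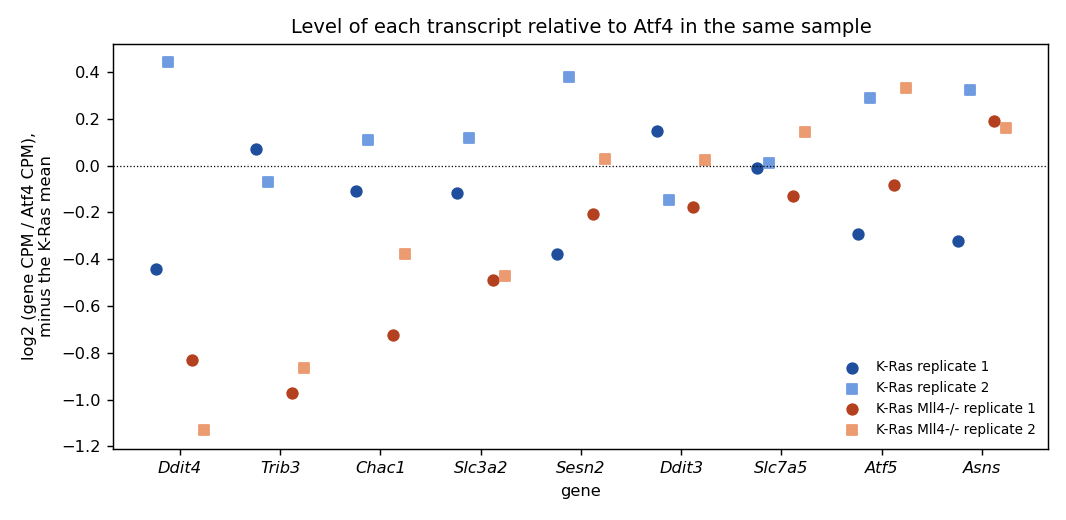
Each point is the log2 ratio of a gene's CPM to Atf4 CPM in 1 sample, with the mean of the K-Ras samples set to 0. The orange K-Ras Mll4-/- points lie below both blue K-Ras points for Ddit4, Trib3, Chac1 and Slc3a2 and overlap them for the other 5 genes.

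The machinery above ATF4 was read from 8 genes, of which the edgeR quasi-likelihood test called 0. DESeq2 called 1 of the 8, beside 10.4% of the genes it gave an adjusted p. Eif2ak3, the endoplasmic reticulum stress kinase PERK, had a log2 fold change of 0.21 and Eif2ak4, the amino acid sensing kinase GCN2, one of -0.19 (edgeR adjusted p = 0.413 and 0.396). Ppp1r15a, or GADD34, an ATF4-pathway target that reverses eIF2alpha phosphorylation, was at 98.8 and 127 CPM in K-Ras and at 67.7 and 72.3 CPM in K-Ras Mll4-/-. Both K-Ras Mll4-/- samples were lower (log2 fold change -0.69, SE 0.17, edgeR adjusted p = 0.166). It was the gene that DESeq2 called (adjusted p = 0.0335), and the range over 16 settings was 0.0335 to 0.772. Eif2s1, the gene of eIF2alpha itself, had a log2 fold change of 0.39 (edgeR adjusted p = 0.229).

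Among 10 partners of ATF4 and other stress factors, 4 were higher and 3 lower without overlap, beside 29.9% and 28.5% of all genes. The edgeR quasi-likelihood test called 0, while DESeq2 called Atf3 lower and Nfe2l2 higher, beside 10.4% of the genes it gave an adjusted p. Atf3, a repressor and target of ATF4 that many stresses induce, was at 68.3 and 141 CPM in K-Ras and at 48.7 and 37.8 CPM in K-Ras Mll4-/-. It was lower in both (log2 fold change -1.28, SE 0.39, edgeR adjusted p = 0.192), and at -0.67 without K-Ras replicate 2. Nfe2l2, which encodes NRF2, the master factor of the antioxidant response, had one of 0.88 (edgeR adjusted p = 0.178), and Cebpg, an ATF4 partner, one of 0.29 (edgeR adjusted p = 0.362). Of the other TRIB paralogues, Trib1 was at 0.59 and Trib2 at -0.51 (edgeR adjusted p = 0.216 and 0.198).

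The remaining ATF4 targets and the amino acid genes held 0 calls by the edgeR quasi-likelihood test, but several by DESeq2, given with each list. The serine, proline and one-carbon enzymes had a median log2 fold change of 0.49, with 7 of 10 higher and 0 lower without overlap, beside 29.9% of all genes higher. Mthfd2, a mitochondrial folate enzyme that ATF4 induces, was at 8.70 and 8.97 CPM in K-Ras and at 35.6 and 42.8 CPM in K-Ras Mll4-/-. The difference was 2.15 on the log2 scale (SE 0.17). Its adjusted p was 0.0839 by edgeR and 2.15e-14 by DESeq2, with a range over 16 settings from 2.15e-14 to 0.600. Psat1, of serine synthesis, was at 16.1 and 21.7 CPM against 57.4 and 73.3 CPM (log2 fold change 1.79, edgeR adjusted p = 0.128). DESeq2 called 3 of this list, Mthfd2, Psat1 and Shmt2, all higher, beside 10.4% of the genes it gave an adjusted p.

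The 20 cytosolic aminoacyl-tRNA synthetases, which charge tRNA and are partly ATF4 targets, had a median log2 fold change of 0.39. Of these, 16 were higher and 0 lower without overlap, beside 29.9% and 28.5% of all genes. At an unadjusted edgeR p under 0.05 there were 12, all higher, beside 11.4% of all genes. Nars, the asparaginyl synthetase, was at 0.87 and Gars, the glycyl synthetase, at 0.76 (edgeR adjusted p = 0.147 and 0.155). These were the 2 of 20 that DESeq2 called, beside 10.4% of the genes it gave an adjusted p. The synthetases below 0 were Vars and Yars, at -0.008 and -0.023.

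Of 18 other ATF4 targets tested, 8 were higher and 3 lower without overlap, beside 29.9% and 28.5% of all genes. Nars and Cars, among the 8, were also counted with the synthetases. The median log2 fold change was 0.18, and 0.036 without K-Ras replicate 1. Stc2, a secreted glycoprotein induced in the integrated stress response, was at 2.39 and 3.82 CPM in K-Ras and at 25.6 and 50.5 CPM in K-Ras Mll4-/- (log2 fold change 3.61, SE 0.46, edgeR adjusted p = 0.128, DESeq2 adjusted p = 5.17e-13, range over 16 settings 5.17e-13 to 0.600). Eif4ebp1, the translation repressor, was at 0.71 and the cystine transporter Slc7a11 at 1.23 (edgeR adjusted p = 0.153 and 0.307). DESeq2 called 4 of the 18, namely Stc2, Nars, Eif4ebp1 and Tnfrsf10b, all higher, beside 10.4% of the genes it gave an adjusted p. Fgf21 had at most 2 reads in any sample and was not tested.

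The 17 other amino acid transporters tested were mixed, with 6 higher and 4 lower without overlap, beside 29.9% and 28.5% of all genes. The median log2 fold change of -0.12 turned to 0.23 without K-Ras replicate 2 and was -0.41 without K-Ras Mll4-/- replicate 1. Slc7a1, the cationic amino acid transporter, was at 37.3 and 40.2 CPM in K-Ras and at 65.6 and 76.6 CPM in K-Ras Mll4-/- (log2 fold change 0.88, edgeR adjusted p = 0.144). Slc38a1, a glutamine transporter, had a log2 fold change of 0.84 (edgeR adjusted p = 0.135). Slc38a2, or SNAT2, a classical amino acid starvation target, had one of 0.95, and Slc6a9, a glycine transporter, one of -0.88 (edgeR adjusted p = 0.153 and 0.157). DESeq2 called 6 of the 17, beside 10.4% of the genes it gave an adjusted p. They were Slc6a9, lower, and Slc7a1, Slc38a1, Slc38a2, Slc43a2 and Slc6a14, higher. The Slc7a5 difference of 0.16 lay well inside the range of this family.

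**Figure D4:**
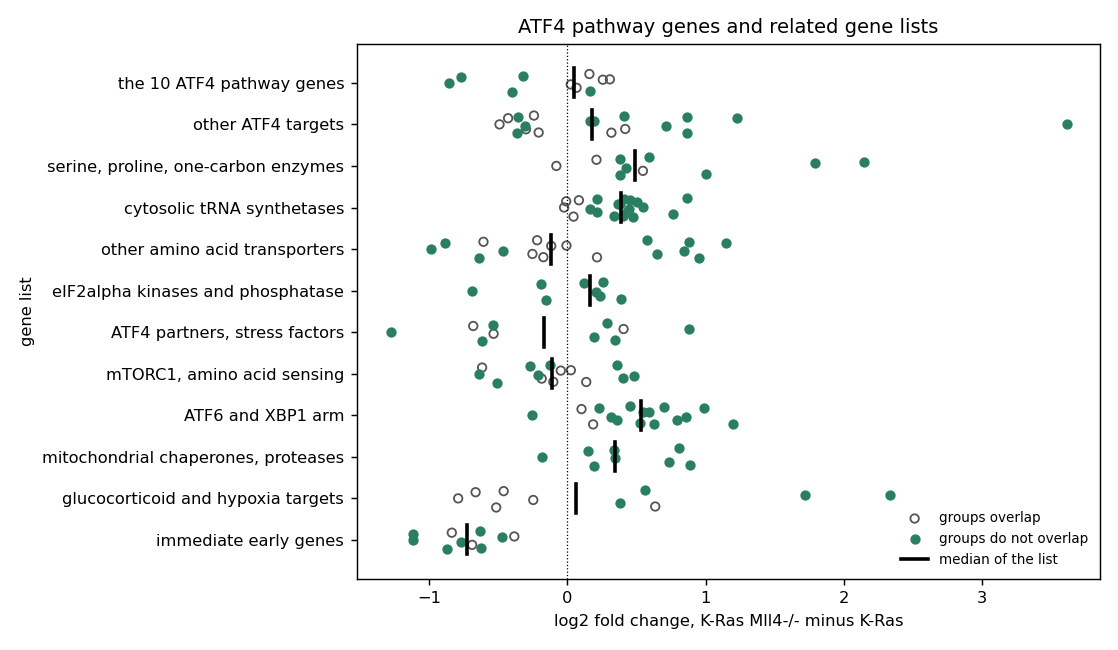
Each point is the log2 fold change of 1 tested gene (filled where the groups do not overlap, open where they do), and each bar the median of a list. The 10 ATF4 pathway genes centre near 0 with 4 filled points on the left. The tRNA synthetases lie mostly between 0 and 0.87, and the 10 genes of the immediate early list are all below 0.

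Genes tied to tissue handling and to cell content were read as well. The immediate early list held 10 genes that tissue dissociation induces, among them the heat shock genes Hspa1a and Hspa1b. All 10 were below 0, with a median log2 fold change of -0.73, 7 of them lower without overlap (28.5% of all genes). The edgeR quasi-likelihood test called 0. DESeq2 called 4 (Dusp1, Fos, Fosb and Junb), all lower, beside 10.4% of the genes it gave an adjusted p. Their summed level was 1977 and 2980 CPM in K-Ras and 1587 and 1332 CPM in K-Ras Mll4-/-. Ddit4, Slc3a2 and Atf3 had the same sample order, whereas Trib3 and Chac1 had other orders. Dusp1 and Junb were at -1.12 and -0.77 (edgeR adjusted p = 0.153 and 0.165). Hspa1a and Hspa1b are near-identical copies, so their counts are uncertain. The part of tissue dissociation in the lower values of Trib3, Ddit4, Chac1 and Slc3a2 was not tested.

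Among other cell types, 6 endothelial markers summed to 3849 and 4047 CPM in K-Ras and to 2903 and 2270 CPM in K-Ras Mll4-/-, with 4 of 6 lower without overlap, beside 28.5% of all genes. The 6 fibroblast markers summed to 2464 and 1121 CPM against 837 and 850 CPM, with 5 of 6 lower without overlap (28.5% of all genes). The 6 ciliated markers summed to 255 and 861 CPM against 239 and 241 CPM, with 5 of 6 lower without overlap (28.5% of all genes). All 4 club markers had a log2 fold change below 0, and 2 of them were lower without overlap, beside the same share. Of 6 plasma cell markers 4 were lower without overlap (Jchain, Mzb1, Tnfrsf17 and Xbp1), beside 28.5% of all genes. Sdc1, also an epithelial gene, was higher without overlap. The sum of the 6 therefore ran the other way, at 1049 and 1062 CPM against 1399 and 1741 CPM. Of 5 mesothelial markers 3 were tested. Msln and Krt19, both also epithelial tumour genes, were higher without overlap, beside 29.9% of all genes. Lrrn4 overlapped (log2 fold change -0.403, edgeR adjusted p = 0.731), and Wt1 and Upk3b were too low to be tested. The 5 mesothelial markers summed to 93.3 and 205 CPM in K-Ras and to 491 and 831 CPM in K-Ras Mll4-/-. Nearly all of each sum was Msln and Krt19. None of the markers in these 6 lists had 0 reads in a sample. The edgeR quasi-likelihood test called 0 of them. DESeq2 called 4 endothelial, 1 fibroblast, 4 ciliated and 2 club markers, all lower, beside 10.4% of the genes it gave an adjusted p. It also called Jchain and Mzb1 lower and Sdc1, Msln and Krt19 higher. In bulk tumour RNA, fewer cells of a type and less RNA per cell cannot be told apart, and the part of these cells in the differences above was not tested.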

How the data were processed

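Raw read counts per gene symbol, 1 file per sample, were deposited by the authors. CASAVA 1.4, STAR, HTSeq and the build mm9 are named in the submitters' processing notes; the annotation and strand setting are not given in the sources used here. Every row named a gene. All 16001 genes passing edgeR's default filter were fitted (R 4.3.3, edgeR 4.0.16, TMM, robust quasi-likelihood test, Benjamini-Hochberg adjustment over all genes). The SE is the size of the log2 fold change over the square root of F. Log2 CPM used a prior count of 2. Lengths and GC content came from the longest GENCODE M21 transcript (GRCm38), available for 15863 tested genes. The fits were also run on simulated counts with a set spread, which does not show how well each test suits these samples. Alternatives used DESeq2 1.42.0, limma 3.58.1 and mgcv 1.9.3. Named genes were the 10 genes, 2 genes with the smallest p per related list, Kmt2d, Ptprc, and the 3 genes nearest Atf4 with mean log2 CPM of at least 3; others named as examples were chosen after their values were seen. The 10 genes and all lists were chosen with earlier results of these data known. The labels name no batch.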

Additional observations from a re-analysis of the deposited data

How the results depend on the processing

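Under 16 other settings none of the 10 genes was called, and 8 of them kept their sign; Ddit3 and Sesn2 did not. Sesn2 was at -0.029 with upper-quartile scaling and -0.016 with total-count scaling, and ran from -0.27 (without K-Ras replicate 1) to 0.39 (without K-Ras replicate 2) with single samples left out. Ddit3 was at -0.10 with GC and length offsets and -0.093 with the replicate block and offsets, and ran from -0.12 (without K-Ras replicate 2) to 0.27 (without K-Ras replicate 1). Ptprc ran from -0.33 (without K-Ras replicate 2) to 0.63 (without K-Ras replicate 1), and was at -0.285 without K-Ras Mll4-/- replicate 1. The median of the 10 genes was between -0.12 and 0.072 with single samples left out, lowest without K-Ras replicate 1. At an unadjusted p under 0.05 there was 1 gene; there were 2 (Trib3 and Ddit4) with upper-quartile scaling, total-count scaling, DESeq2 and the likelihood ratio test, and 2 (Atf5 and Trib3) with the replicate block and offsets. Leaving out single samples gave 0 to 3. Over all genes the calls numbered 6. They were 44 without a count filter, 1601 with DESeq2, 1503 with the likelihood ratio test and 0 with limma-voom (3228 had an unadjusted p under 0.05). With the replicate block there were 217, and 392 with the offsets as well. Leaving out single samples gave 0 to 528 calls, the most without K-Ras replicate 1. The cause was not tested. As a check of pairing, the deviations of same-numbered samples correlated at 0.21. With 2 pairs that share only a number, this does not establish pairing, and the block called none of the 10 genes. Among the other lists of the list plot it called Mthfd2, Psat1, Stc2 and Slc6a14 (edgeR adjusted p = 0.0214, 0.0206 and 0.0106 for the first 3), all higher. Limma-voom called 0 genes of any list. Alternatives for the other lists and their named genes were chosen after seeing the data: of the lists in the list plot, the tRNA synthetase median ran from 0.32 to 0.41 and the immediate early median from -1.03 to -0.44.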

Other observations

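Chaperone genes of the neighbouring stress responses, not described above, were measured in 2 lists. In these the edgeR quasi-likelihood test called 0 genes and DESeq2 called 7, all higher in K-Ras Mll4-/- tumours. DESeq2 called 10.4% of the genes it gave an adjusted p. The ATF6 and XBP1 arm of the unfolded protein response raises the folding capacity of the endoplasmic reticulum. Of its 16 genes, 13 were higher (29.9% of all genes) and 1 lower without overlap. At an unadjusted edgeR p under 0.05 there were 10, all higher, beside 11.4% of all genes. The median log2 fold change was 0.54, and it was between 0.38 and 0.65 under 16 other settings. Hspa5, the chaperone BiP, was at 429 and 532 CPM in K-Ras and at 748 and 920 CPM in K-Ras Mll4-/- (log2 fold change 0.80, edgeR adjusted p = 0.177). Pdia4, a disulfide isomerase, had a log2 fold change of 1.20 and Sdf2l1, an ATF6 target, one of 0.99 (edgeR adjusted p = 0.153 and 0.147). DESeq2 called Hspa5, Hsp90b1, Pdia4 and Sdf2l1. The gene lower without overlap was Xbp1, a factor of the arm itself, at 198 and 186 CPM in K-Ras and 171 and 150.3 CPM in K-Ras Mll4-/- (log2 fold change -0.26, edgeR adjusted p = 0.344). Xbp1 is also a plasma cell marker, and the plasma cell genes Jchain, Mzb1 and Tnfrsf17 had log2 fold changes of -1.13, -1.30 and -1.97; their part in the Xbp1 value was not tested. Ddit3, which endoplasmic reticulum stress also induces, overlapped between the groups.

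Of 8 mitochondrial chaperone and protease genes, 7 were higher (29.9% of all genes) and 1 lower without overlap, with a median log2 fold change of 0.34. DESeq2 called Hspd1, Hspe1 and Hspa9. Hspd1, the mitochondrial chaperonin, was at 90.8 and 102 CPM in K-Ras and at 170.5 and 187 CPM in K-Ras Mll4-/- (log2 fold change 0.89, edgeR adjusted p = 0.141). Its partner Hspe1 was at 0.74 (edgeR adjusted p = 0.147). Both have processed copies in the mouse genome, so their counts are less certain.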
